A study of Mus musculus with 8 samples.

Results

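A set of 10 genes of the neuronal cytoskeleton and of neurite growth were followed in mouse neuroblastoma. They are the neurofilament subunits Nefl, Nefm and Nefh, the related filament proteins Ina and Prph, the neuronal tubulin Tubb3, the microtubule-associated proteins Mapt and Map2, and the growth-associated genes Stmn2 and Gap43. They were chosen by name and function, with earlier results of these data known. They are 10 of the 35419 genes with a symbol in the tumor RNA. For each gene the estimated counts and the TPM (a relative level per transcript length) were summed over its transcripts in each tumor. Of the 10 genes, 8 passed the filter on low counts and were tested. These 8 had at least 970 reads in every tumor of either treatment, so the filter did not depend on 1 group.

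All tumors grew in A/J mice from Neuro-2a (N2A) cells, a single established mouse neuroblastoma line, injected under the skin; the study's methods give female mice, bought at 4 weeks of age. Once a tumor could be felt, the mice received SR59230A, which blocks the β3-adrenergic receptor, intraperitoneally at 10 mg/kg 2 times a day, or vehicle on the same schedule. RNA of 8 whole tumors was sequenced, 4 from SR59230A-treated mice (numbered 1 to 4) and 4 from vehicle-treated mice (numbered 0 to 3). The study's text speaks of sequencing in duplicate, and how that relates to the labelled tumors is not given in the sources used here. The labels were followed, with each tumor taken as a replicate (n = 4 a group), so every p-value below measures only the spread between these samples, which may be in part technical.

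Neurofilaments are built from light, medium and heavy subunits, with α-internexin and peripherin as partners, and they set the calibre of axons. Microtubules of neurons contain βIII-tubulin and are bound by tau, mostly in axons, and by MAP2, mostly in dendrites. Stathmin-2 and GAP-43 are enriched in growth cones, and all of these genes are used as signs of neuronal differentiation in neuroblastoma cells.

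Totals ran from 23484190 to 44045575 estimated counts per tumor. Of 17 listed neuroblast markers 15 passed the filter on low counts, and their levels differed widely. The transcription factors Phox2a and Hand2 had mean levels of 124 and 108 TPM, and Th, the rate-limiting enzyme of catecholamine synthesis, had 78.7 TPM. Lower in the same list were Mycn at 8.92 TPM, Gata3 at 2.11 TPM, the vesicular monoamine transporter Slc18a1 at 1.24 TPM and the noradrenaline transporter Slc6a2 at 0.0906 TPM. The tumors differed in other ways too. The summed CPM (read counts set relative to the scaled library total) of 8 tested skeletal muscle markers was 2100 in SR59230A tumor 1, 181 in SR59230A tumor 2 and between 10.4 and 27.2 in the other 6. Reads assigned to transcripts annotated as retained introns made up 3.71% to 4.2% of reads in SR59230A tumors 1 and 3 and vehicle tumor 3, and 2.48% to 2.95% in the other 5. Because whole tumors were sequenced, fewer cells of a type and less RNA per cell cannot be told apart.

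Differing stretches of Mapt and Prph are shown here because the transcript models that carry them were counted separately. They come from GENCODE transcripts matched by identifier and length to those in the files, placed on GRCm38, and all lie in coding sequence on the plus strand (the submitters' processing notes name GRCm39, and the study's methods a GRCm38 transcriptome). The 2 Mapt models with the longest coding sequence carry a pair of 87-base exons that encode the acidic N-terminal inserts of tau. Some Prph models keep a 96-base intron that the main model splices out, adding 32 codons, and capitals mark the splice-site bases at its ends.
Mapt N-terminal exon A, chr11:104287123-104287209: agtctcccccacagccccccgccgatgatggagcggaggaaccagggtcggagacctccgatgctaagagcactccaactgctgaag
Mapt N-terminal exon B, chr11:104289908-104289994: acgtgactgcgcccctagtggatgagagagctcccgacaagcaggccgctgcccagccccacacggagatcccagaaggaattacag
Prph retained intron, chr15:99056937-99057032: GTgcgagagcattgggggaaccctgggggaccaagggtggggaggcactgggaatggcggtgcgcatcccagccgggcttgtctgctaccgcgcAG

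The 10 genes spanned more than 3 orders of magnitude in level. The neurofilament subunits Nefl and Nefm were close to undetected, while their heavy partner Nefh was expressed in every tumor. Nefl, the light subunit on which neurofilaments assemble, had 4, 5, 2 and 1 reads in the SR59230A tumors, against 2, 2, 1 and 2 reads in the vehicle tumors. Its highest level was 0.0602 TPM. Nefm, the medium subunit, had 1, 0, 0 and 1 reads in the SR59230A tumors, against 5, 1, 5 and 17 reads in the vehicle tumors. The counts of 0 allow up to 0.0637 CPM in SR59230A tumor 2 and 0.146 CPM in SR59230A tumor 3, counting error only. Of the 28 vehicle reads of Nefm, 17 came from vehicle tumor 3, and neither gene was tested.

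Per length, Nefh reads outnumbered those of Nefl by 845-fold (95% exact interval 541 to 1400, counting error only) over the 8 tumors together, and those of Nefm by 662-fold (463 to 981). As a measure of background, 29% of 1404 olfactory receptor genes had a higher mean TPM than Nefl, and 27% a higher one than Nefm. The gene models of Nefl and Nefm overlap on opposite strands of chromosome 14 (chr14:68083863-68089095 and chr14:68082590-68124846), so at these counts reads of the pair are uncertain.

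Among the 8 expressed genes, Tubb3 and Prph stood highest. Tubb3 had a median of 420 TPM over the 8 tumors (range 216 to 820), and Prph, the type III filament protein of peripheral neurons, had 350 TPM (235 to 638). Both were within the 303 highest of 21716 protein-coding genes in every tumor. Tubb3 was higher than Prph in 6 of 8 tumors, a mean difference of 0.26 ± 0.28 log2 TPM (SD, n = 8), which did not pass the exact sign-flip test (adjusted p = 0.0729 over 7 neighbouring pairs). Prph was above the next gene, Stmn2, in all 8 tumors, by 3.53-fold as a geometric mean (exact sign-flip adjusted p = 0.0137).

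Stmn2 had a median of 107 TPM, Gap43 90.4 TPM, Mapt 58.1 TPM, Map2 31.9 TPM, Ina 35.3 TPM and Nefh 25.6 TPM. Each of Stmn2, Gap43 and Mapt was above its next neighbour in all 8 tumors (exact sign-flip adjusted p = 0.0137 each). These levels sum coding and noncoding models, and 27.8% to 38.7% of Gap43 TPM was on a noncoding model. The order on coding models alone was not tested. Map2 and Ina could not be ordered, with a mean difference of 0.05 ± 0.26 log2 TPM (exact sign-flip adjusted p = 0.586, n = 8). Ina was above Nefh in 7 of 8 tumors (exact sign-flip adjusted p = 0.0218).

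**Figure D1:**
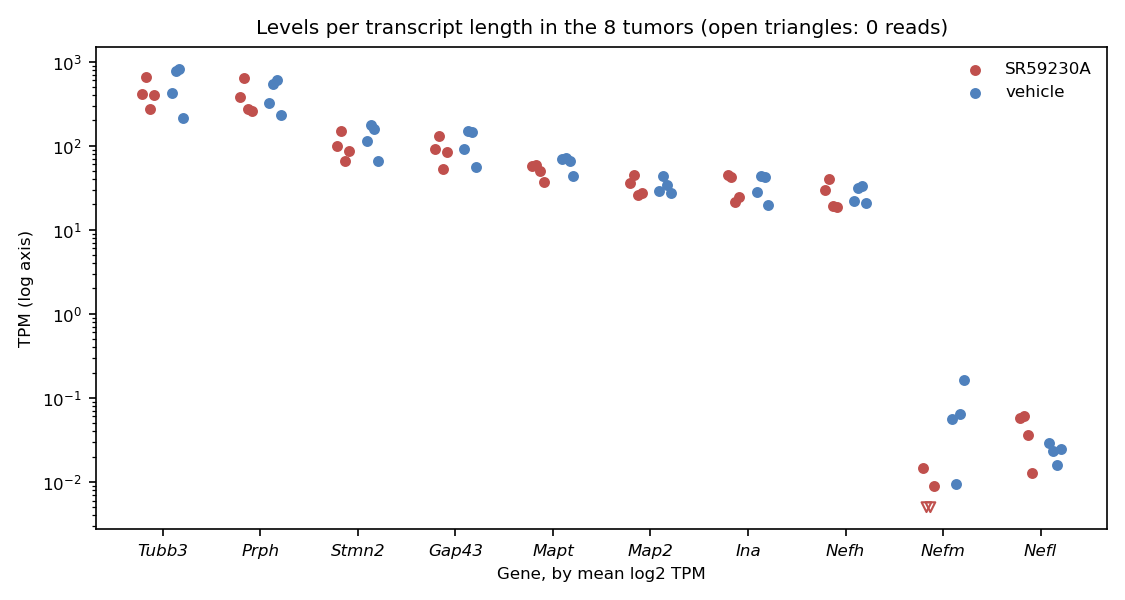
Levels in TPM, on a log axis, of the 10 genes in 4 SR59230A tumors (left in each pair) and 4 vehicle tumors, ordered by mean log2 TPM, with 1 point per tumor and open triangles where a tumor had 0 reads. The 8 tested genes lie between 18.9 and 820 TPM, and Nefm and Nefl lie at or below 0.162 TPM in every tumor.

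The main comparison asked whether these genes differed between tumors of SR59230A-treated and vehicle-treated mice. None of the 8 tested genes passed the threshold, and neither did any other gene: 0% of 15193 genes were called by edgeR's quasi-likelihood test (a log2 fold change of 0.5 or more in size at a Benjamini-Hochberg adjusted p under 0.05), while 704 had an unadjusted p under 0.05. DESeq2 called 36 genes (0.219% of those tested), none of them among the 8. All 8 log2 fold changes were below 0, where 50.4% of all genes tested were, and their median was -0.24 against a median of 0 (to 2 decimals) over all genes tested. With the retained-intron share as a covariate this median was -0.10, without the muscle-rich SR59230A tumors 1 and 2 it was -0.39, and without SR59230A tumors 2 or 3 alone it was -0.38 or -0.16.

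**Figure D2:**
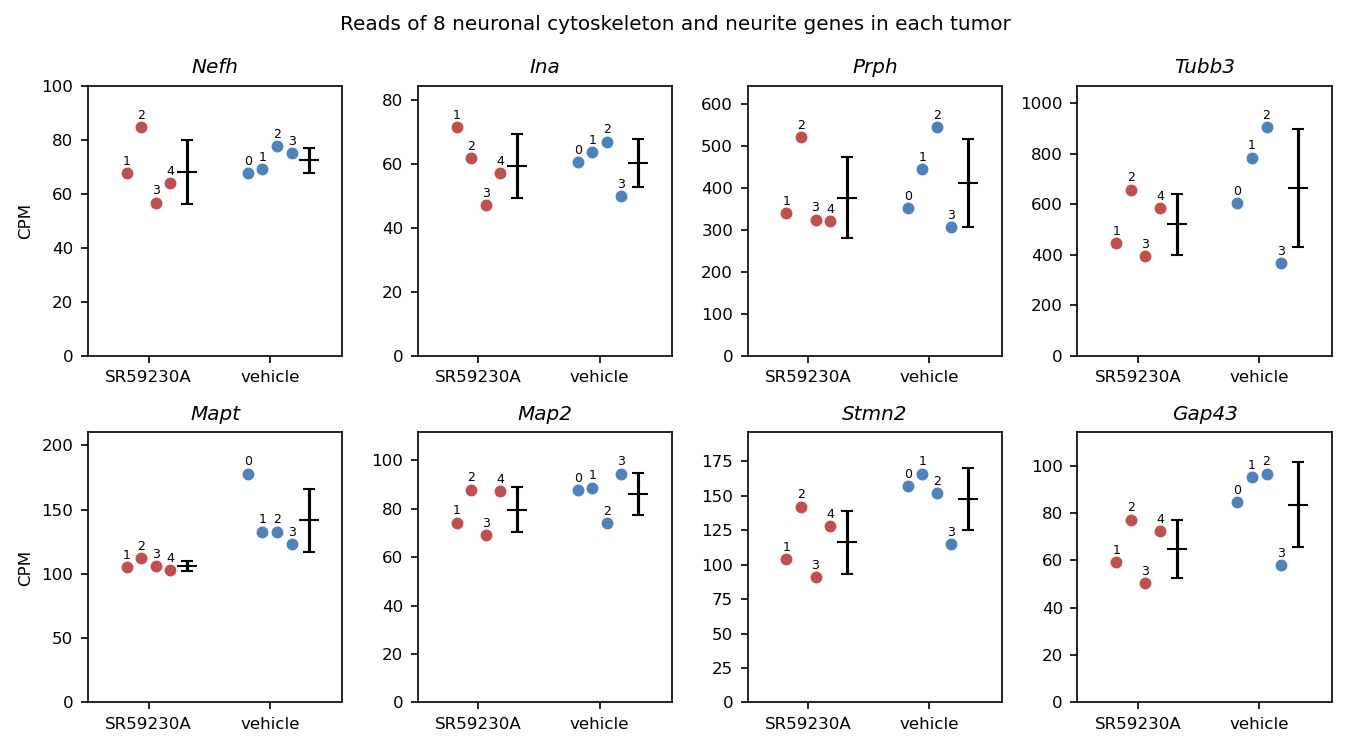
CPM of the 8 tested genes in each tumor (numbered points), SR59230A on the left and vehicle on the right, with the mean and SD of each group (n = 4) as a bar beside the points. Only the points of Mapt do not overlap between treatments, with 103 to 112 CPM in SR59230A tumors and 123 to 178 CPM in vehicle tumors.

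Among the filament proteins, Nefh, the heavy neurofilament subunit whose tail carries many phosphorylation sites, had 67.7, 84.8, 56.8 and 64.0 CPM in the SR59230A tumors, against 67.8, 69.2, 77.7 and 75.2 CPM in the vehicle tumors. Of the SR59230A tumors 3 lay below the lowest vehicle tumor, while tumor 2 held the highest value of all. The log2 fold change was -0.08 ± 0.13 (SE; edgeR adjusted p = 0.996), -0.21 without SR59230A tumor 2 and -0.01 without SR59230A tumor 3. Ina, which encodes α-internexin, a filament protein of early neurons, had 71.6, 61.8, 47.2 and 57.2 CPM in the SR59230A tumors, against 60.7, 63.8, 67.1 and 49.9 CPM in the vehicle tumors. Its groups overlapped almost fully, and its log2 fold change was -0.02 ± 0.14 (edgeR adjusted p = 0.996), between -0.12 and 0.07 without single tumors. Ina shares its locus with Nt5c2 on the opposite strand, which had a mean of 2450 reads, and whether strand was used in the counting is not given in the sources used here.

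Prph had 340, 521, 325 and 321 CPM in the SR59230A tumors, against 352, 445, 545 and 307 CPM in the vehicle tumors. SR59230A tumors 1, 3 and 4 lay close together, and tumor 2 stood near the top of the vehicle range. The log2 fold change was -0.13 ± 0.22 (edgeR adjusted p = 0.996), -0.33 without SR59230A tumor 2, 0.0355 without vehicle tumor 2 and 0.0196 with the retained-intron share as a covariate. Within tumors, Nefh made up 0.071 ± 0.0059 of the Prph level in SR59230A tumors and 0.0675 ± 0.014 in vehicle tumors (ratio of TPM, SD, n = 4 each). This ratio, the Ina to Prph ratio and the Nefh to Ina ratio did not pass between treatments (exact permutation adjusted p = 0.686, 0.686 and 0.857 over 6 ratios). These 3 pairs were taken after the values were seen, in place of ratios to Nefl that its counts could not give.

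Tubb3 had 446, 658, 396 and 584 CPM in the SR59230A tumors, against 604, 785, 906 and 368 CPM in the vehicle tumors. The lowest value of all was in vehicle tumor 3 and the next lowest in SR59230A tumors 3 and 1, the same 3 tumors with the highest retained-intron share. The log2 fold change was -0.35 ± 0.28 (edgeR adjusted p = 0.996), and -0.10 with that share as a covariate. It was -0.745 without vehicle tumors 0 and 3 and SR59230A tumor 4, in which an earlier analysis of these data had found satellite-like reads, and between -0.56 and -0.17 without single tumors. Tubb3 was the second most abundant β-tubulin after Tubb5. It made up 21.6%, 25.9%, 24% and 26.3% of β-tubulin TPM in the SR59230A tumors, against 29.6%, 29.1%, 29% and 24.1% in the vehicle tumors. The difference of -0.19 log2 in this share did not pass (exact permutation p = 0.0857, adjusted p = 0.514 over 6 ratios). β-tubulin genes are close in sequence, so reads may be split between them.

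Mapt encodes tau, and in the main fit it was the 1 member with an unadjusted p under 0.05 and the 1 whose groups did not overlap. It had 105, 112, 106 and 103 CPM in the SR59230A tumors, against 178, 133, 133 and 123 CPM in the vehicle tumors. The SR59230A tumors spread over 4.2 CPM (SD) and the vehicle tumors over 24.5 CPM, with vehicle tumor 0 well above the rest. The log2 fold change was -0.41 ± 0.13 (edgeR unadjusted p = 0.00901, adjusted p = 0.996), and an exact permutation over the 70 assignments gave p = 0.0286, the smallest it can give. Of all genes tested, 2.41% were lower at an unadjusted p under 0.05 and 1.28% had every SR59230A tumor below every vehicle tumor. Against those shares, 1 of the 8 members is not read as a result about the set. Under some alternatives other members also had an unadjusted p under 0.05. Without vehicle tumor 3 these were Gap43, Stmn2 and Tubb3 (edgeR unadjusted p = 0.00989, 0.0205 and 0.0324, adjusted p = 0.5, 0.524 and 0.55).

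The fold change of Mapt stayed below 0 under all 27 alternatives, between -0.54 and -0.26, with adjusted p between 0.339 (DESeq2) and 1. Without vehicle tumor 0 it was -0.28. Markers of the neuroblast lineage were also lower in value: 11 of 15 tested neuroblast genes had a log2 fold change below 0, and their median was -0.27. Their summed level was 2340 to 3640 CPM in SR59230A tumors and 3230 to 4760 CPM in vehicle tumors. Most of that sum was Chgb, at 1480 to 2750 CPM in SR59230A tumors and 2130 to 3580 CPM in vehicle tumors. Mapt lay 1.63 log2 units above the mean log2 CPM of the neuroblast genes in SR59230A tumors and 1.76 above it in vehicle tumors, a difference of -0.13 (exact permutation p = 0.229). Of the macrophage markers 9 of 10 had a log2 fold change above 0 (median 0.32), with a sum of 450 to 769 CPM in SR59230A tumors and 334 to 759 CPM in vehicle tumors. Of the fibroblast and matrix markers 8 of 10 were above 0 (median 0.32), with 1530 to 1930 CPM in SR59230A tumors and 1140 to 1880 CPM in vehicle tumors. All 7 tested Schwann cell and glial markers were below 0 (median -0.23), with 361 to 515 CPM in SR59230A tumors and 455 to 518 CPM in vehicle tumors. Most of this was Pmp22, at 276 to 445 CPM in SR59230A tumors and 338 to 429 CPM in vehicle tumors, and Foxd3 had 0 reads. Of the proliferation markers 9 of 10 were above 0 (median 0.13). Of the endothelial markers 6 of 8 were below 0 (median -0.06), as were 3 of 5 tested lymphocyte markers (median -0.35). The lymphocyte markers were low, with a sum of 2.17 to 8.27 CPM in SR59230A tumors and 1.87 to 6.43 CPM in vehicle tumors. Of these, Ms4a1 took 0.87 to 6.72 CPM in SR59230A tumors and 0.604 to 3.83 CPM in vehicle tumors. None of the marker genes in these lists was called by edgeR. The part of the tumors' cell make-up in the Mapt values was not tested.

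Map2, whose protein links microtubules in dendrites, had 74.2, 87.9, 69.2 and 87.3 CPM in the SR59230A tumors, against 87.6, 88.7, 74.0 and 94.5 CPM in the vehicle tumors. By CPM it was the steadiest member, with a coefficient of variation of 11% over the 8 tumors. By TPM that of Map2 was 22.7% and that of Mapt 21.2%. The log2 fold change of Map2 was -0.11 ± 0.12 (edgeR adjusted p = 0.996), between -0.18 and -0.06 without single tumors. The Map2 to Mapt ratio was 0.662 ± 0.118 in SR59230A tumors and 0.549 ± 0.0957 in vehicle tumors (ratio of TPM, SD, n = 4 each), a difference of 0.27 log2 that did not pass (exact permutation adjusted p = 0.686). It was 0.149 without vehicle tumor 0 and at most 0.385 without any other single tumor.

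**Figure D3:**
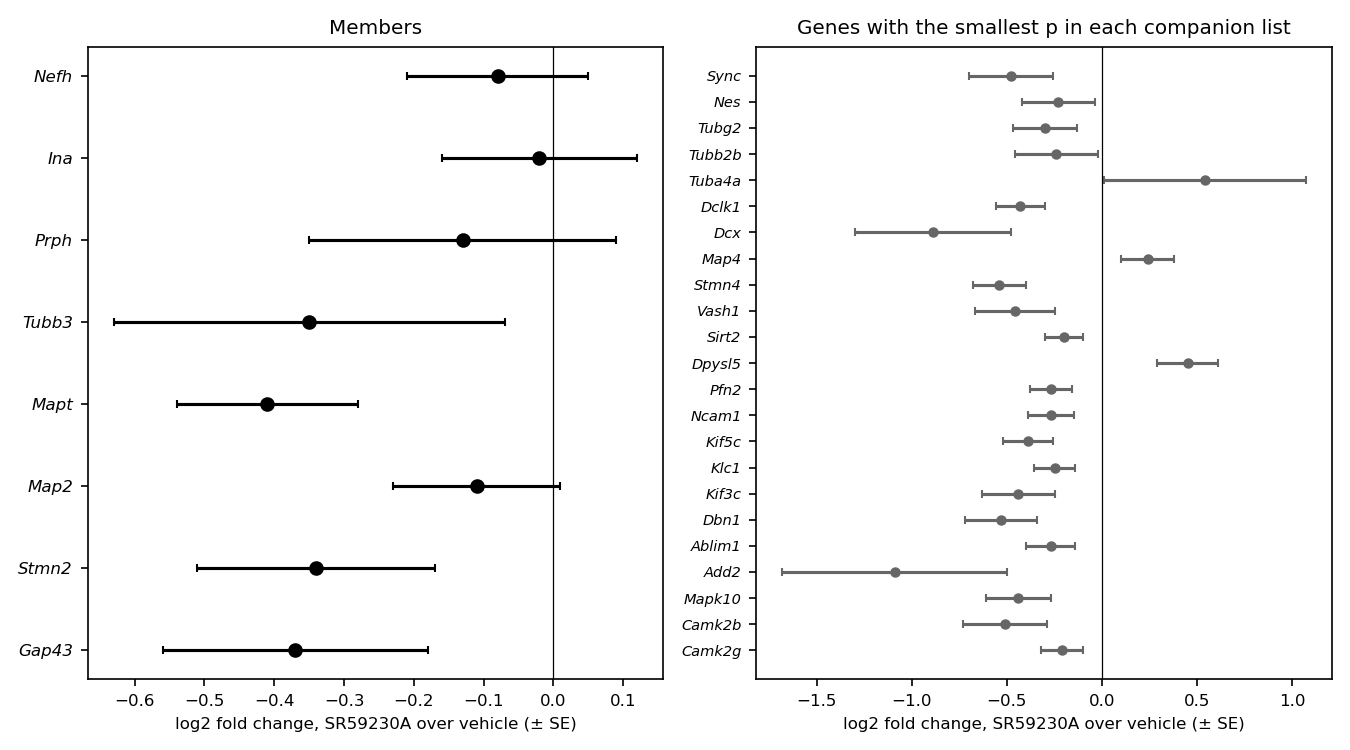
Fitted log2 fold changes of SR59230A over vehicle with their SE, for the 8 tested members (left) and for the 3 genes with the smallest unadjusted p in each of 8 companion lists, Des left out (right). All 8 members lie below 0, from -0.02 for Ina to -0.41 for Mapt, and no gene in either panel passed the adjusted threshold.

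Stmn2, which encodes a tubulin-binding protein of growth cones, had 104, 142, 91.1 and 128 CPM in the SR59230A tumors, against 157, 166, 152 and 115 CPM in the vehicle tumors. Vehicle tumor 3 lay among the SR59230A tumors, and the other 3 vehicle tumors lay above them. The log2 fold change was -0.34 ± 0.17 (edgeR unadjusted p = 0.0682, adjusted p = 0.996). Gap43, a membrane protein of growing axons, had 59.4, 77.3, 50.3 and 72.4 CPM in the SR59230A tumors, against 84.6, 95.2, 96.7 and 58.1 CPM in the vehicle tumors. It showed the same layout, with vehicle tumor 3 below 3 of the 4 SR59230A tumors, and a log2 fold change of -0.37 ± 0.19 (edgeR unadjusted p = 0.0813, adjusted p = 0.996). With the retained-intron share as a covariate the fold changes were -0.22 for Stmn2 and -0.21 for Gap43, and without the 3 tumors with satellite-like reads that of Gap43 was -0.61. The Gap43 to Stmn2 ratio was 0.897 ± 0.069 in SR59230A tumors and 0.853 ± 0.059 in vehicle tumors (ratio of TPM, SD, n = 4 each; exact permutation adjusted p = 0.686).

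Gap43 varied with both Stmn2 and Tubb3 from tumor to tumor, and the pair of Tubb3 and Stmn2 did not pass after adjustment over 28 pairs. Over the 8 tumors, Stmn2 and Gap43 gave a Pearson r of 0.97 (exact permutation p = 0.000273, adjusted p = 0.00764 over 28 pairs) and a Spearman rho of 0.90 (p = 0.00456, adjusted p = 0.0426, exact permutation). Without the 2 tumors farthest from the median of Stmn2, r was 0.94. Tubb3 and Gap43 gave r = 0.95 (exact permutation adjusted p = 0.0122) and rho = 0.95 (adjusted p = 0.0319), with r = 0.97 without 2 tumors. Tubb3 and Stmn2 gave r = 0.86 (exact permutation p = 0.00858, adjusted p = 0.0801) and rho = 0.81 (p = 0.0218, adjusted p = 0.122). Without 2 tumors, r was 0.95 for this pair. It was among the 8 pairs first listed, while Tubb3 and Gap43 was not. The family of 28 was taken after the counts were seen, and no adjustment over the 8 first pairs was made. For that reason the 3 pairs are not set apart here.

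For Mapt and Map2 no relation passed at this number of tumors (r = 0.32, exact permutation adjusted p = 0.585, and rho = 0.26, adjusted p = 0.653). Prph and Tubb3 passed by rank only, with rho = 0.90 (exact permutation adjusted p = 0.0426) and r = 0.83 (adjusted p = 0.102), and r = 0.82 without 2 tumors. The pairs of Nefl and Nefm could not be computed from their counts. Tubb3, Stmn2 and Gap43 were each lowest in the 3 tumors with the highest retained-intron share, at 50.3 to 59.4 CPM for Gap43 against 72.4 to 96.7 CPM in the other 5. Those tumors form a cluster of 3 and a cluster of 5, too few for a correlation within either. In the same 3 tumors mitochondrial genes took 3.61% to 7.47% of reads, against at most 3.16% in the other 5, and olfactory receptor genes took 0.221% to 0.381%, against at most 0.212%. The part of these library properties in the shared pattern was not tested.

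**Figure D4:**
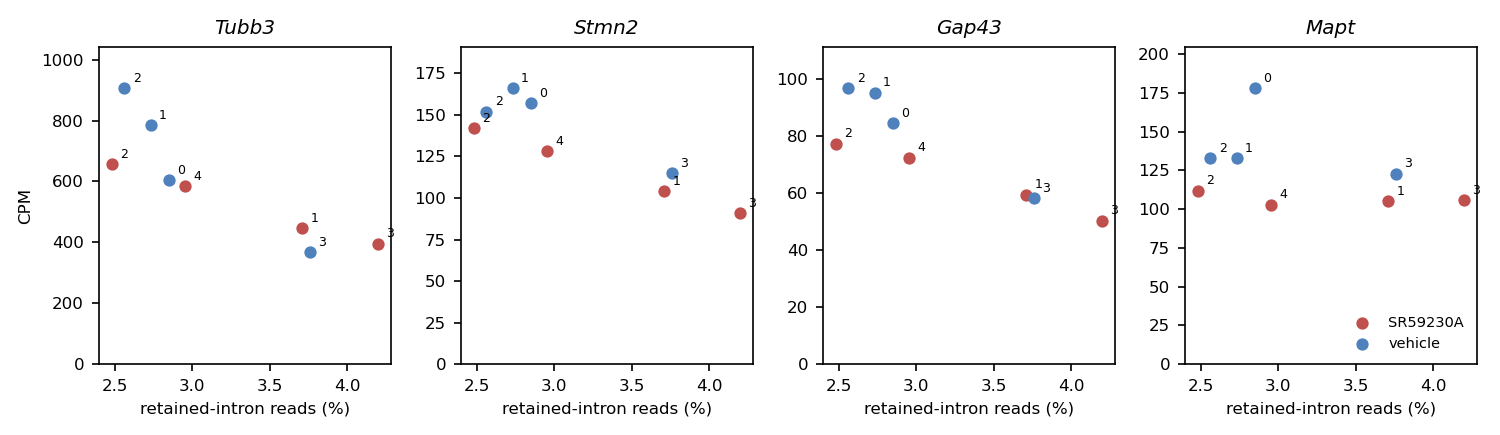
CPM of Tubb3, Stmn2, Gap43 and Mapt against the share of reads on transcripts annotated as retained introns, for 4 SR59230A and 4 vehicle tumors (numbered points). The 3 tumors at 3.71% to 4.2% hold the lowest Tubb3, Stmn2 and Gap43 values, and Mapt separates by treatment at either end.

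The promoters of Tubb3 and Prph, which passed together by rank, are shown as RefSeq gives them for GRCm38.p6 (250 bases before the start and 50 after it), with the GGGCGG box and its reverse complement CCGCCC in capitals. Promoters of 4 members were in that set, the others being Map2 and Ina.
Tubb3, chr8:123411303-123411602, plus strand: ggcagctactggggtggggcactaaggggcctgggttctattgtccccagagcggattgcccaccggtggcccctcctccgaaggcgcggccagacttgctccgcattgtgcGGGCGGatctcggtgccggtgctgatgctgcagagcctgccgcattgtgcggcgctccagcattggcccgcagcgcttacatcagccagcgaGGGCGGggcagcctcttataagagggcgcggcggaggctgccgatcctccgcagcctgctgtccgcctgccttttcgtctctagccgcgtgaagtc
Prph, chr15:99054924-99055223, plus strand: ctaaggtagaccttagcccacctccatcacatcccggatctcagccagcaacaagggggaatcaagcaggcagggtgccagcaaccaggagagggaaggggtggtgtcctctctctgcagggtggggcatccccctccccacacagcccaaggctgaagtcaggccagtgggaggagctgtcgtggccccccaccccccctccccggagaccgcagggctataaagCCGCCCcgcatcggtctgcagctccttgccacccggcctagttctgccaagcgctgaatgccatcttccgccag
On both strands, GGGCGG was found 2 times in the Tubb3 promoter and 1 time in the Prph promoter, and 35.7% of 32851 promoters of this length held it. TATAAA was found 1 time in the Prph promoter and not in that of Tubb3, and 13.6% of promoters held it. CCAAT was found 1 time in the Tubb3 promoter and not in that of Prph, with 37.4% of promoters holding it. The Tubb3 promoter had 26 CpG dinucleotides and that of Prph 10.

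Transcript models were compared within genes. Mapt had 12 models in the files, of which 1 with a coding length of 1116 bases and neither N-terminal exon held 35.3% to 51.9% of the gene's TPM. The 2 models with the longest coding sequence add the pair of N-terminal exons printed above and a large exon of 711 or 759 bases, as in the big tau of peripheral neurons. They made up 31.1%, 33.0%, 36.8% and 33.8% of full-length Mapt in the SR59230A tumors, against 26.9%, 31.5%, 27.3% and 35.1% in the vehicle tumors. The difference of 3.5 percentage points did not pass (exact permutation p = 0.2, adjusted p = 0.514 over 12 isoform tests). Reads of the 1116-base model alone were 81.8, 89.1, 75.9 and 77.8 CPM in the SR59230A tumors, against 145, 106, 107 and 91.3 CPM in the vehicle tumors, without overlap (exact permutation p = 0.0286, adjusted p = 0.228). Its share of Mapt TPM averaged 44.1% and 46.8% (exact permutation adjusted p = 0.685). Reads of the 2 longest-coding models averaged 18.7 and 21.5 CPM (exact permutation p = 0.0571, adjusted p = 0.228). Those 2 models hold almost no noncoding bases, so the split of noncoding reads is uncertain.

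Map2 had 24 models. Those with the optional 93-base exon that encodes an additional microtubule-binding repeat made up 28.6%, 36.3%, 40.6% and 35.3% of full-length Map2 in the SR59230A tumors, against 50.9%, 39.6%, 23.6% and 42.3% in the vehicle tumors (exact permutation adjusted p = 0.685). The model with the 3741-base exon of the high-molecular-weight protein made up 4.67%, 14.0%, 4.36% and 10.0% in the SR59230A tumors, against 14.4%, 17.5%, 10.5% and 15.1% in the vehicle tumors. SR59230A tumors 1, 3 and 4 lay below every vehicle tumor and tumor 2 did not. The difference of -6.1 percentage points did not pass (exact permutation p = 0.0571, adjusted p = 0.228). In these estimates most full-length Map2, meaning 7 of the 24 models, was of the short, low-molecular-weight kind in both groups. Models outside those 7 included 1 at 10.9% to 26.9% of Map2 TPM. The long model has 5484 coding bases of 6258, and the leading short model 1494 of 5303, so the split of noncoding reads between them is uncertain. Estimates of single Map2 models varied widely, and 1 short model was at 0% of Map2 TPM in vehicle tumor 0 and at 12.6% to 29% in the other vehicle tumors.

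Prph was mostly the spliced model, at 73.8% to 86.0% of its TPM. The models that keep the 96-base intron printed above encode the larger peripherin of mouse. They made up 16.6%, 11.4%, 13.8% and 14.5% of full-length Prph in the SR59230A tumors, against 12.2%, 11.9%, 11.2% and 17.5% in the vehicle tumors (exact permutation adjusted p = 0.686). A noncoding model took 27.8% to 38.7% of Gap43 TPM. The leading models of Stmn2 and Tubb3 took at least 84.9% and 96.1% of their genes' TPM in every tumor.

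**Figure D5:**
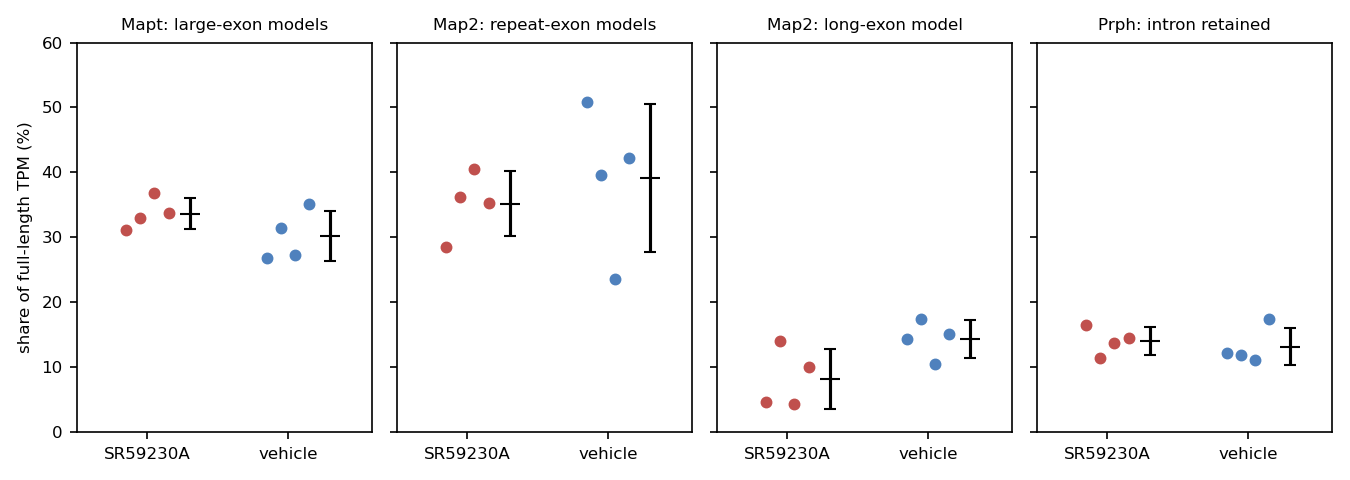
Share of full-length TPM (%) taken by 4 groups of models in each tumor, SR59230A left of vehicle, with mean and SD (n = 4). The Map2 long form averaged 8.26% in SR59230A tumors and 14.4% in vehicle tumors, and no share passed the exact permutation test after adjustment.

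Related genes were read from 8 lists by function, also chosen with earlier results known, with 153 of 163 genes tested and none called by edgeR. Of these, 109 (71.2%) had a log2 fold change below 0, where 50.4% of all genes did, and the median was -0.12. At an unadjusted edgeR p under 0.05, 10 (6.54%) were lower and 2 were higher. Among all genes 2.41% were lower at that p, which is 366 of the 704 genes that had it. Every SR59230A tumor lay below every vehicle tumor for 3 (1.96%) of the related genes, beside 1.28% of all genes. Stmn4, a stathmin of neurons, averaged 14.8 ± 2.04 CPM in SR59230A tumors and 21.5 ± 2.21 CPM in vehicle tumors (SD, n = 4 each), without overlap (log2 fold change -0.54 ± 0.14, edgeR adjusted p = 0.996). Dclk1, a doublecortin-like microtubule-binding kinase, averaged 67.5 ± 7.2 CPM in SR59230A tumors and 90.9 ± 13.6 CPM in vehicle tumors, and Kif5c, a kinesin motor of axonal transport, averaged 293 ± 39.5 CPM in SR59230A tumors and 385 ± 36.8 CPM in vehicle tumors. Both were without overlap at log2 fold changes of -0.43 and -0.39 (edgeR adjusted p = 0.996 each).

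Dpysl5, a collapsin response mediator of growth cones, had the opposite sign, at 13.0 ± 2.48 CPM in SR59230A tumors and 9.55 ± 0.56 CPM in vehicle tumors without overlap (log2 fold change 0.45 ± 0.16, edgeR adjusted p = 0.996). The share of all genes without overlap in that direction is not given here. Des, the desmin of muscle, had 151 CPM in the muscle-rich SR59230A tumor 1 and 4.36 to 9.0 CPM in the other 7 tumors. In the list of transport motors, 15 of 19 tested genes were below 0 and Klc1 and Kif3c had log2 fold changes of -0.25 and -0.44. Among microtubule-associated proteins 16 of 21 were below 0, with Dcx at -0.89 ± 0.41 and Map4, which is not limited to neurons, at 0.24 ± 0.14.

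In the remaining lists, 8 of 10 other intermediate filament genes were below 0, Sync and Nes at -0.48 and -0.23, as were 8 of 12 tubulins, with Tubg2 and Tubb2b at -0.30 and -0.24 and Tuba4a at 0.54. Of the stathmins and tubulin-modifying enzymes 12 of 18 were below 0, Vash1 and Sirt2 at -0.46 and -0.20. The same was so for 24 of 34 growth cone and guidance genes, with Pfn2 and Ncam1 both at -0.27. Of spectrins, ankyrins and actin-binding proteins it was 13 of 18, with Dbn1 at -0.53, Ablim1 at -0.27 and Add2 at -1.09. Add2 was near the floor, at 0.0637 to 0.479 CPM over the tumors, and the SE of its fold change was 0.59. Of kinases and phosphatases it was 13 of 21, with Mapk10, Camk2b and Camk2g at -0.44, -0.51 and -0.21. None of these genes passed (edgeR adjusted p = 0.996 each).

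The genes whose pattern over the 8 tumors was most like the mean of the 8 members, among 8126 protein-coding genes with at least 10 TPM on average, were Cep41 (Pearson r = 0.982), Ctbp2 (0.978), Amz2 (0.975), Map4k1 (0.975) and Traf3ip2 (0.974). The most opposite were Zfp931 (-0.989), Zfp345 (-0.986), Zfp942 (-0.981), Spopl (-0.979) and Gm2026 (-0.978). These values describe the 8 tumors, which share depth and library properties, and carry no test.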

How the data were processed

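RNA of 8 N2A tumors was quantified by the authors with Salmon in mapping-based mode, and the deposited files give estimated counts, TPM and an effective length per transcript. The authors also deposited a DESeq2-normalized count table, a signal scaled between libraries. It holds 15035 symbols and 5 of the 10 members, and served as 1 alternative. Its vehicle column without a number was used as a vehicle tumor of unknown number. The counting strand is not given in the sources used here (the kit was stranded). Some items are not reported here. Members and lists were chosen with earlier results of these data known.

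Estimated counts were summed per gene (99.1% of transcripts matched to GENCODE, at most 0.455% of reads unmatched) and rounded. edgeR 4.0.16 (R 4.3.3) used TMM factors, its default filter, the quasi-likelihood test and p-values adjusted by Benjamini-Hochberg over 15193 genes. SE was taken from the fold change and its F statistic. Single values used exact two-sided permutations over 70 assignments (smallest p 0.0286), and levels were ordered by exact sign flips. Correlations were adjusted over all 28 pairs of tested members instead of the 8 pairs first listed, most of which involved Nefl or Nefm. Alternatives used DESeq2 1.42.0, limma 3.58.1 (log2 of TPM plus 1 or 0.1), other scaling, filters and length offsets, and leaving out each tumor. Named genes were the members, the 3 genes of each companion list with the smallest p, and the 5 genes most like and most unlike the members.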

Additional observations from a re-analysis of the deposited data

Results flagged for a closer look

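There were 2 values that stood far from the other 3 tumors of their group, judged by the gap to the nearest tumor over the group's range (Dixon's test, 28 groups of 4 checked; chance gives about 1 in 20). Prph had 521 CPM in SR59230A tumor 2, with a gap of 0.881 of the range on the log2 scale. The share of Tubb3 among β-tubulins was 24.1% in vehicle tumor 3, with a gap of 0.899 of the range.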

How the results depend on the processing

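No member was called under any of the 28 alternatives, and the median of the tested members stayed between -0.39 and -0.10. Mapt, Map2, Stmn2 and Gap43 stayed below 0 under every alternative run for them. The count of genes called over all genes was 0 in the main fit, 36 with DESeq2, 22 with DESeq2 and length offsets, and 5 in the 4 tumors not numbered 1 or 2, and 0 to 1 without single tumors. It was 2 with the replicate block in tumors 1 to 3 and 1 without the block, a fit chosen after seeing the data. Whether the numbers pair the tumors cannot be settled from tumors 1 to 3 alone. Same-numbered deviations correlated at -0.09, 0.60 and 0.60. SR59230A tumors 2 and 3 correlated best with the vehicle tumor of their own number, though tumor 2 was nearly as close to vehicle tumor 1 (0.58). SR59230A tumor 1 correlated best with vehicle tumor 3 (0.10). At an unadjusted edgeR p under 0.05 there were 863 genes with the block and 405 without it.

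Fold changes that changed sign, all small, were those of Ina (0.0023 in tumors 1 to 3 without the block, 0.0307 in tumors 1 and 2, 0.044 with the retained-intron covariate, and -0.12 to 0.0693 without single tumors), Prph (0.0196 with that covariate, -0.33 to 0.0355 without single tumors), Nefh (0.0589 in tumors 1 and 2) and Tubb3 (1.28e-05 in the tumors not numbered 1 or 2). The log2 Gap43 to Stmn2 difference was -0.0246 with protein-coding transcripts and -0.00982 with estimated counts. Without single tumors, the Ina to Prph difference was -0.0171 to 0.26 and that of Nefh to Ina -0.11 to 0.0784. The Tubb3 share difference was -0.26 to -0.14 without single tumors, with an unadjusted exact permutation p of 0.0286 without vehicle tumor 3 (adjusted p = 0.171). The cause was not tested. With 4 tumors a group and edgeR, changes of these sizes may be missed.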
